A study of Rattus norvegicus with 4 samples.

Results

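Small RNAs that came down with Piwil2 from the hippocampal CA1 region of rats 26 h after transient global cerebral ischemia (the tGCI26h library) were compared with those in an immunoprecipitation with nonspecific IgG. RIP-seq recovers RNA with an antibody to a protein, here Piwil2, and sequences it. The deposited table lists 3129 sequences, 126 of them under rat piRNA database names (rno_piR) and the rest under names that start with novel_. The comparison took the 1961 sequences with at least 10 tags in the tGCI26h or the IgG library. Of these, 1239 had 10 tags in tGCI26h, 1884 in IgG and 1162 in both. They are 21 to 39 nt long, include 26 rno_piR names, and hold 99.5% of the tGCI26h tags and 99.6% of the IgG tags.

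The rats were adult male Wistar animals of 7 to 8 weeks. The 4 libraries, 1 per group, are Sham, tGCI26h, HPC0h (HPC is not spelled out in the labels, and 0 h is its time) and IgG. The study's design text gives 3 replicates for each of the sham, ischemia and HPC groups, but 1 library of each was analysed here, and whether animals were pooled is not given. No strain, allele or drug difference between the groups is given, and which animals supplied the IgG sample is not given either. The table's column headings match the sample titles only in part, by the time or by the first letter. With 1 library on each side there was no test between conditions. Every ratio below is CPM (the tag count scaled to the library total) in tGCI26h over CPM in IgG, with an exact 95% Clopper-Pearson interval that covers counting error only. PCR copies were not marked by molecular identifiers, so tags are not independent molecules. A sequence was called higher or lower where the ratio was at least 2 either way and the interval excluded 1.

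Piwil2 is a PIWI-clade Argonaute protein. PIWI proteins bind piRNAs, small RNAs that are somewhat longer than microRNAs, guide silencing of transposons in the germ line, and often start with U. In the secondary, or ping-pong, pathway the partner piRNA carries A at position 10 and overlaps the first by 10 bases at the 5′ ends. Fragments of abundant RNAs such as rRNA and tRNA are common in immunoprecipitates, which is why an IgG sample is set beside them. The RNA names below are provisional: they rest on recognising the sequences from general knowledge, some once the values were known, with no rat rRNA, tRNA or genome sequence to compare them with. Names of microRNAs come from an identity match to RefSeq (GRCr8).

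The following sequences from the deposited table carry the comparison. They are shown because the tRNA, rRNA, snRNA and BC1 results below turn on them. The first 3 share a start and differ at the 3′ end of tRNA-Asp, where capitals mark the closing bases. In the next 3, capitals mark the 7 bases AGCTCAG of the D arm of several tRNAs, which BC1 RNA shares. The others are in lower case throughout.
novel_3619_x509, tRNA-Asp: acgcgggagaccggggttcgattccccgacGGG
novel_1651_x1057, tRNA-Asp: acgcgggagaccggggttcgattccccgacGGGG
novel_3644_x506, tRNA-Asp: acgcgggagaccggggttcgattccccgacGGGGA
rno_piR_005598, tRNA-Lys: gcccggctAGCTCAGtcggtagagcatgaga
rno_piR_005595, tRNA-Lys: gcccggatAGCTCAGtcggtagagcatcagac
novel_11388_x172, BC1 RNA: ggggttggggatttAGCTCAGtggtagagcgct
rno_piR_005901, tRNA-Val: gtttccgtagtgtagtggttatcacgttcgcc
rno_piR_005567, tRNA-Gly: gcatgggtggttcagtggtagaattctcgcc
novel_2845_x640, tRNA-Glu: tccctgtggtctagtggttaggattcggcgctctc
novel_3814_x485, mitochondrial tRNA-Gln: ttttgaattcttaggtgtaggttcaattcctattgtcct
novel_9017_x213, 18S rRNA 5′ end: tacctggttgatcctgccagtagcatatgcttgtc
novel_14_x71274, 28S rRNA near the 3′ end: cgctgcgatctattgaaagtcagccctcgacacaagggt
novel_88_x12235, 28S rRNA 5′ end: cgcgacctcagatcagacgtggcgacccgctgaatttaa
novel_426_x3250, U1 snRNA: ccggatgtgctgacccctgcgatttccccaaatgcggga
novel_5060_x368, U2 snRNA: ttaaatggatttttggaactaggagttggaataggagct

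For the 2 microRNAs that were called, capitals mark the seed, bases 2 to 8 of the RefSeq mature sequence. Their seeds differ. The mature let-7b-5p sequence lies at chr7:118684044-118684065 on the plus strand of GRCr8, and that of miR-672-5p at chrX:73192351-73192373 on the minus strand.
rno-let-7b-5p: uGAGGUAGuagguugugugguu
rno-miR-672-5p: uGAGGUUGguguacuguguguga

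The entries of the table are not separate tallies. In 11568 pairs a shorter listed sequence lies wholly within a longer one, and in all 11568 the longer one had at least as many tags in each of the 4 libraries. In 520 of these pairs the counts were equal in every library. Among 52260 pairs of unequal length that overlap without one lying within the other, the longer was at or above the shorter in all 4 libraries in 71.8%. The authors' normalized table showed the nested order in 11563 of 11568 pairs. A tag can therefore stand in several entries, sums over a family can count it more than once, and the intervals of such sums are too narrow. For that reason each main value was also computed over the 1074 sequences contained in no longer listed sequence, here called the longest forms, a choice made after seeing the data. Their tags add up to 72.3% of the tGCI26h column and 66.3% of the IgG column.

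Against IgG, 36 of 59 measured tRNA fragments, among them those of tRNA-Asp, tRNA-Lys and tRNA-Val, and several unassigned tRNA-like sequences were higher in the ischemia library. The sums of U1 snRNA and let-7b were lower, and the rRNA fragments that make up most tags lay close to the IgG level with single sequences on both sides. Of the 1961 sequences, 325 were higher, 16.6% of those measured, and 383 were lower, 19.5%. The 325 higher sequences held 15.5% of the tGCI26h tags and 4.93% of the IgG tags. The 383 lower sequences held 2.55% and 10.8%. Among the 1755 sequences listed in both libraries the median ratio was 0.928. The median was 3.54 over the higher sequences listed in both libraries and 0.301 over the lower ones. A ratio of at least 10 was reached by 47 of the higher sequences, and 23 of the lower ones were at least as far below.

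The balance of higher to lower calls followed the choice of entries. The IgG library holds 3.01 times the tags of tGCI26h. Through IgG alone 722 sequences entered, of which 292 were lower and 0 could be higher. Through tGCI26h alone 77 entered. At these depths 10 tags in tGCI26h against fewer than 10 in IgG always meet the rule, so all 77 had to be called higher. Of the 1961, 194 were not listed in tGCI26h and 12 not in IgG. With at least 10 tags in both libraries, 248 were higher and 91 lower. Over the longest forms alone, 195 of 844 were higher and 163 lower. With library totals that leave out the 28S 5′ end family, 263 were higher and 523 lower, so that 33.5% of the calls were higher in place of 45.9%.

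**Figure D1:**
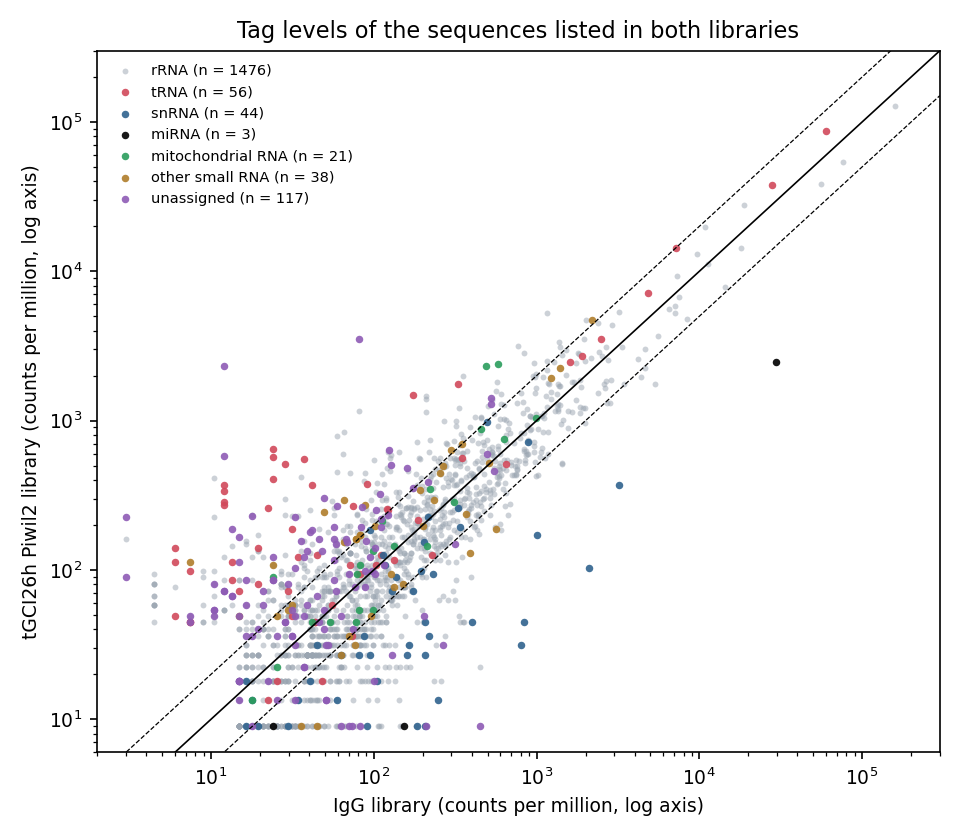
CPM in the IgG library (x axis, log scale) and in the tGCI26h Piwil2 library (y axis, log scale) for the 1755 measured sequences listed in both, 1 point per sequence and coloured by RNA class. The solid line marks equal levels and the dashed lines a ratio of 2 either way. Most rRNA points follow the line, tRNA and unassigned points lie above it at the left, and let-7b lies far below it at the right.

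Sequences that share any 20 bases were joined into 307 families. Of 199 families with at least 10 tags on either side, 66 were higher, 33.2%, and 30 lower, 15.1%. Over the longest forms, 60 of 192 were higher and 33 lower. In 33 families at least 1 member was higher and at least 1 lower, including 32 of the 69 families with 5 or more measured members.

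Transfer RNA fragments were called in 1 direction. Of 59 measured tRNA sequences in 14 families, 36 were higher (61.0% of them, against 16.6% of all sequences) and 0 lower. The median log2 ratio was 1.85 in tRNA sequences and -0.26 over all 1961. Of the 40 with at least 10 tags in both libraries 21 were higher and 0 lower. Summed tRNA tags made up 16.8% of tGCI26h and 11.0% of IgG, a ratio of 1.53 (1.51 to 1.55). Most of these tags were tRNA-Glu, and without it the sum was 2.60 times IgG (2.51 to 2.69).

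Transfer RNA-Asp carries aspartate to the ribosome, and its 3′ fragments had the highest ratio to IgG among the RNA sums listed in both libraries. The sum stood at 4759 CPM in tGCI26h, 272.1 in IgG, 2499.8 in Sham and 817 in HPC0h. The 26 h library was thus highest and IgG lowest, with a ratio of 17.5 (14.9 to 20.6) over all entries and 14.4 over the longest forms. Of 16 measured sequences 15 were higher, 6 of them with 10 tags in both libraries, and they overlap, so they are not independent. The lead sequence, novel_7169_x265, had 144 tags in tGCI26h, 16 in IgG, 5 in Sham and 56 in HPC0h, a ratio of 27.1 (16.1 to 48.6).

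The ends of the tRNA-Asp fragments differed between the libraries. The 33 nt form ending in GGG had 61 tags in tGCI26h, 8 in IgG, 2 in Sham and 49 in HPC0h. The 34 nt form with 1 more G had 75, 8, 10 and 55 tags in the same order. The 35 nt form that closes with A had 114, 19, 98 and 80 tags. Each form holds the one before it, so the difference between neighbours gives the tags that the longer form has beyond the shorter. Shorter entries that close with the same A are also listed, such as novel_3248_x567 of 34 nt, and their tags can stand in the 35 nt form. The difference is therefore not the yield of 1 added base at 1 start. The step to the 35 nt form added 39 tags in tGCI26h (34.2% of that form), 11 in IgG (57.9%), 88 in Sham (89.8%) and 25 in HPC0h (31.25%). Fragments were also grouped by their end over all starts, a choice made after the values were seen. Shorter entries lie within longer ones, so a tag can count more than once in a group and in both groups. The intervals of these sums are therefore too narrow. Fragments ending in GACGGG were 17.4 times Sham (10.6 to 30.7) in tGCI26h, whereas those ending in CGGGGA were 1.38-fold lower than Sham (1.18 to 1.62). The first group was 22.5 times IgG in tGCI26h (16.8 to 30.6), 1.29 times in Sham and 3.50 times in HPC0h. The second was 14.9 times IgG in tGCI26h (11.4 to 19.8), 20.5 times in Sham and 2.77 times in HPC0h.

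**Figure D2:**
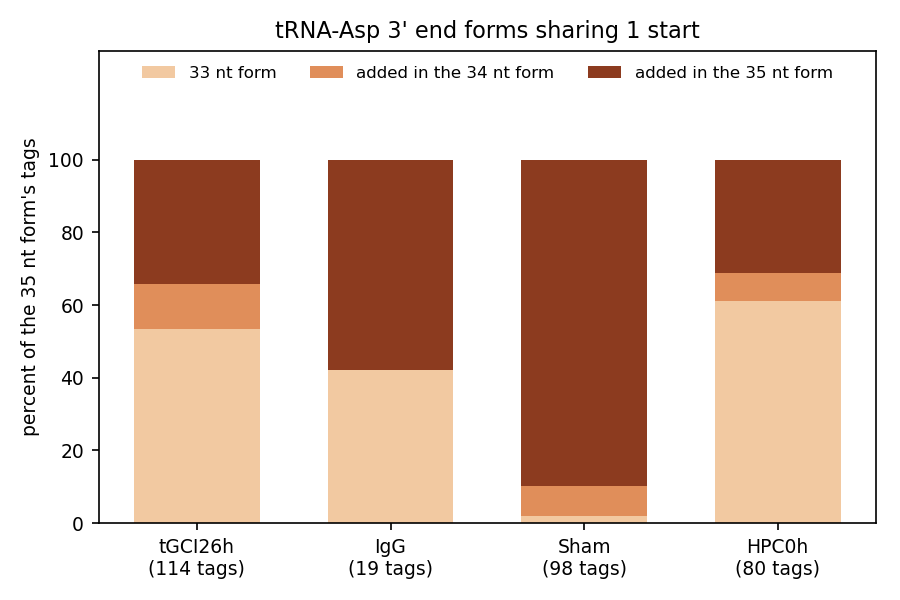
Share of the tags of the 35 nt tRNA-Asp form (y axis, percent) that were already in the 33 nt form, added in the 34 nt form and added in the 35 nt form, in each library (x axis, with the tags of the 35 nt form). There is 1 library per bar and no error bar. In Sham 89.8% was added in the 35 nt form, against 34.2% in tGCI26h and 57.9% in IgG. That part can include tags of shorter entries with the same last base.

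All 5 measured tRNA-Lys 5′ fragments, from tRNAs that carry lysine, were listed under rno_piR names. Their sum was 2382 CPM in tGCI26h, 315.5 in IgG, 678 in Sham and 502 in HPC0h, 7.55 times IgG (6.43 to 8.90), and 5 of 5 measured sequences were higher. Of these 5, 3 had 10 tags in both libraries and 2 were measured through tGCI26h alone. The most abundant, rno_piR_005598, had 333 tags in tGCI26h, 117 in IgG, 42 in Sham and 319 in HPC0h, a ratio of 8.56 (6.91 to 10.7). The related rno_piR_005595, from another lysine tRNA, had 83, 28, 29 and 27 tags in the same order. Tags of tRNA-Lys were 3.51 times as frequent in tGCI26h as in Sham (2.85 to 4.36), a direct ratio in which IgG cancels.

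Valine and glycine tRNA 5′ fragments were above IgG in tGCI26h but higher still in Sham. For tRNA-Val the levels were 2081 CPM in tGCI26h, 407 in IgG, 3027 in Sham and 507 in HPC0h, and 3 of 3 sequences were higher, with a sum 5.12 times IgG (4.40 to 5.97). Its tags were 1.45-fold lower in tGCI26h than in Sham (1.28 to 1.66). For tRNA-Gly the levels were 14624 in tGCI26h, 7233 in IgG, 37057 in Sham and 6764 in HPC0h. The tRNA-Gly sum was 2.02 times IgG (1.93 to 2.11), and 4 of 4 sequences were higher, 2 of them measured through tGCI26h alone. The call of the sum rests on the threshold, since the ratio was 1.85 over the longest forms and 1.89 with TMM factors. In tGCI26h the tRNA-Gly tags were 2.53-fold lower than in Sham (2.43 to 2.65).

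Transfer RNA-Glu, the most abundant tRNA in the table, lay closer to IgG. It held 31699 tags in tGCI26h, 66914 in IgG, 21548 in Sham and 53565 in HPC0h, which is 1.42 times IgG (1.41 to 1.44). Only 4 of its 17 measured sequences were higher and 0 were lower. The leading 5′ fragment, novel_2845_x640, had 19284 tags in tGCI26h and 40303 in IgG, a ratio of 1.44 (1.41 to 1.46), and was not called. The initiator tRNA, tRNA-iMet, was 4.33 times IgG (3.07 to 6.14) with both of its sequences higher, 1 of them measured through tGCI26h alone. Histidine tRNA, which was 5.10 times IgG in Sham, was 0.731 times IgG in tGCI26h (0.620 to 0.858) with 0 of 5 sequences called. The direct comparison put tRNA-His 6.98-fold lower in tGCI26h than in Sham (5.97 to 8.20).

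The selenocysteine tRNA fragment rno_piR_005596 was also higher, at 16 tags against 10. The tRNA-Cys fragments, 3 nested entries with 7 tags each in tGCI26h, were not listed in IgG and did not reach 10 tags.

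The D-arm bases AGCTCAG lay within the first 20 bases of 25 measured sequences from 10 families. This group was picked out after the values were seen, so its counts are a description. Of the 25 sequences, 21 were higher (84.0%, against 16.6% of all sequences) and 1 was lower. Several of the 21 were measured through tGCI26h alone and so could only be called higher. Among these were novel_12514_x158, with 82 tags against none listed in IgG, and novel_1925_x925, with 12 against 7. The sum of the group was 10.7 times IgG (9.81 to 11.6). That sum was 0.170% of tags in HPC0h, 0.465% in Sham, 1.15% in tGCI26h and 0.108% in IgG. The unassigned members, 20 sequences of 8 families, were 13.4 times IgG (12.1 to 14.9) with 17 higher. Neither the RNA nor the organism of these tRNA-like sequences was identified here.

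Among them are the largest ratios of the whole comparison. The sequence novel_18422_x113 had 520 tags in tGCI26h, 8 in IgG, 37 in Sham and 4 in HPC0h, a ratio of 195 (98.4 to 455). The sequence novel_7583_x251 had 778, 54, 182 and 66 tags in that order, a ratio of 43.3 (32.8 to 58.2). Both were highest in tGCI26h and next highest in Sham. As families they were 22.6 times IgG, with 7 of 7 members higher, and 46.9 times IgG, with 3 of 3. With 10 tags in both libraries there were 4 members of the first family and 1 of the second, all higher. The other 3 and 2 were measured through tGCI26h alone, and nested members share tags. Against Sham the family of novel_18422_x113 was 3.01 times as high (2.58 to 3.52) and that of novel_7583_x251 3.43 times (2.92 to 4.05). The other unassigned sequences among the 10 highest ratios were novel_2533_x716 with 50 tags against 2, from the second of these families, novel_8146_x236 with 130 against 8, from the first, and novel_19983_x106 with 20 against 2. Over all 145 measured unassigned sequences 57 were higher and 34 lower, and of the 70 with 10 tags in both libraries 40 were higher and 2 lower.

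The 3 sequences with the most tags in tGCI26h among those not listed in IgG came from the same families or from mitochondrial RNA. For these no fold is given, because a blank cell need not be a true 0: 374 blank IgG cells are filled in the authors' normalized table, and the lowest value listed in the raw table is 2. The same holds on the other side, where 706 blank tGCI26h cells are filled. Sequences not listed in tGCI26h therefore need not be absent from it. Of the 3 not listed in IgG, the unassigned novel_12514_x158 had 82 tags in tGCI26h, 14 in Sham and 4 in HPC0h. The unassigned novel_10843_x180 had 45 tags in tGCI26h and was listed raw in no other library, while the normalized table gives it 202 in tGCI26h, 8 in Sham and 2 in HPC0h. A mitochondrial tRNA-Leu fragment, novel_20487_x104, had 42 tags in tGCI26h and none listed elsewhere, although the authors' normalized table gives it 166 in tGCI26h, 5 in Sham and 1 in HPC0h.

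Mitochondrial tRNA-Gln, encoded by the mitochondrial genome, was higher over IgG and over Sham. Its summed fragments were 6238 CPM in tGCI26h, 1972 in IgG, 3027 in Sham and 1279 in HPC0h, 3.16 times IgG (2.93 to 3.41) and 2.06 times Sham (1.86 to 2.29). Of 7 measured sequences 2 were higher, novel_3814_x485, with 536 tags in tGCI26h and 388 in IgG, and a copy shifted by 1 base. Fragments of mitochondrial 16S rRNA were at 1.07 times IgG (0.983 to 1.17), an interval that spans 1.

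**Figure D3:**
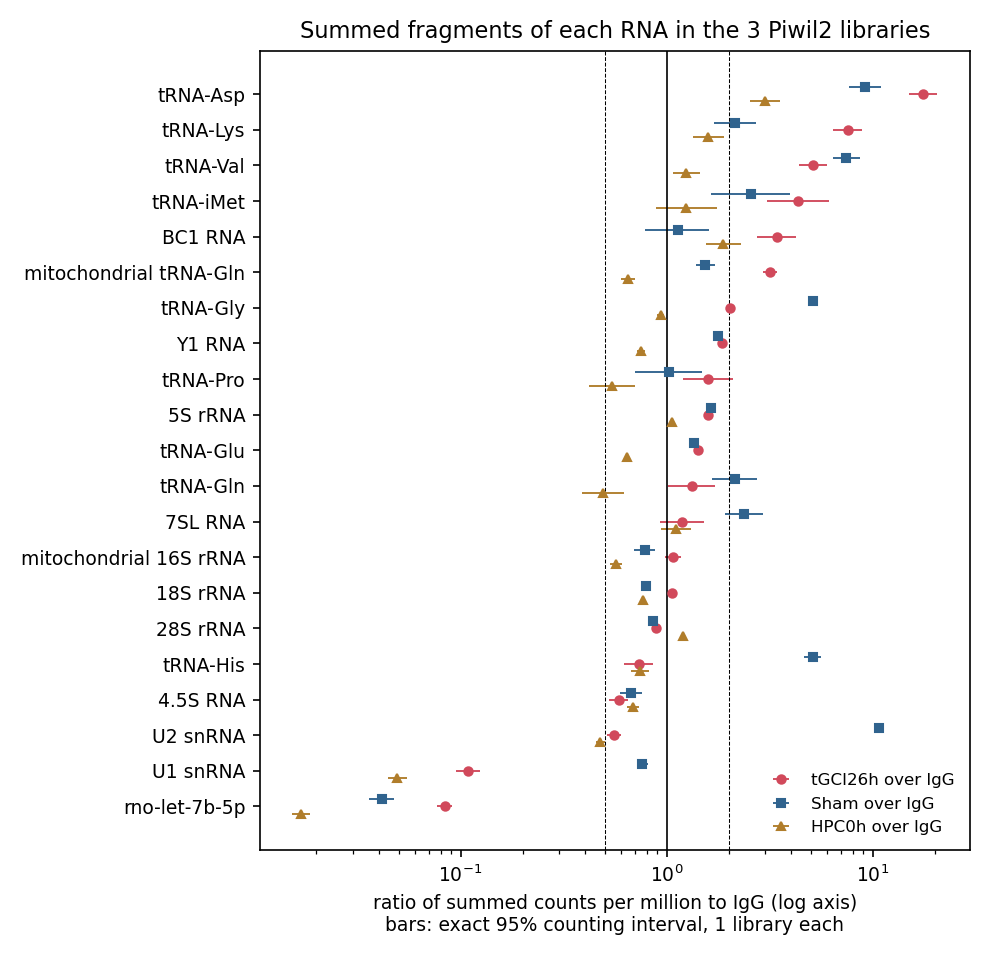
Ratio of summed CPM to the shared IgG library (x axis, log scale) for 21 RNAs (y axis) in tGCI26h, Sham and HPC0h, with exact 95% counting intervals and 1 library per point. Dashed lines mark a ratio of 2 either way. In tGCI26h tRNA-Asp was highest at 17.5 and let-7b lowest at 0.0838, and U2 and tRNA-His stood above IgG in Sham only among the 3 libraries.

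Ribosomal RNA fragments gave 77.5% of the tags in tGCI26h and 81.7% in IgG, a ratio of 0.948 (0.943 to 0.954). Of 1616 measured rRNA sequences 214 were higher and 296 lower, 13.2% and 18.3%, near the shares over all sequences. That order turned with at least 10 tags in both libraries, where 172 of 980 rRNA sequences were higher and 78 lower. The 28S rRNA of the large ribosomal subunit summed to 0.890 times IgG (0.884 to 0.896), with 114 of 920 sequences higher and 157 lower (92 and 33 of 560 with 10 tags in both). The 18S rRNA of the small subunit summed to 1.06 times IgG (1.05 to 1.07), with 96 of 676 higher and 138 lower (77 and 45 of 406 with 10 tags in both). The 5S rRNA sum was 1.58 times IgG (1.54 to 1.63), and 4 of its 20 sequences were higher and 1 lower. One of these, novel_1503_x1146, had 36 tags against 2, among the 10 highest ratios of the table.

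Within 28S rRNA the family at the 5′ end was not called as a sum and the family near the 3′ end was higher. The 5′ end family, led by novel_88_x12235, summed to 0.762 times IgG (0.756 to 0.768). Of its 181 measured sequences 0 were higher and 33 lower, 18.2%, near the 19.5% over all sequences. The leading sequence, the most abundant of the library, had 28657 tags in tGCI26h and 107258 in IgG, a ratio of 0.803 (0.793 to 0.814). The next 28S sequences by abundance, novel_61_x20743 and novel_43_x30099, are from the same family and were at 0.710 and 0.688 times IgG. The family near the 3′ end, led by novel_14_x71274, summed to 10044 CPM in tGCI26h, 2921 in IgG, 5257 in Sham and 4565 in HPC0h. It was 3.44 times IgG (3.23 to 3.66), with 21 of 28 sequences higher and 1 lower. Of the 17 with 10 tags in both libraries 13 were higher and 0 lower, and 8 of the 21 were measured through tGCI26h alone. The family was also 1.91 times Sham (1.76 to 2.07). Its leading sequence had 1174 tags in tGCI26h and 780 in IgG, a ratio of 4.52 (4.13 to 4.96). Over the longest forms the family was 3.10 times IgG.

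Among other 28S families with 200 tags, those of novel_19387_x108, novel_15630_x130 and novel_18167_x114 were higher at 2.33, 2.02 and 2.00 times IgG. All 3 lost the call with totals that leave out the 28S 5′ end family, at 1.99, 1.73 and 1.71. The second also lost it with TMM factors (1.89) and without let-7b (1.97). The third also lost it with TMM factors (1.87), with median-of-ratios factors (1.99) and without let-7b (1.95). The lead of the first, novel_19033_x110, had 40 tags in tGCI26h and 57 in IgG, a ratio of 2.11 (1.37 to 3.22). Others were called lower. The family of novel_2514_x722 summed to 2.01-fold below IgG (1.75 to 2.32), and its leading sequence, with 115 tags in tGCI26h and 955 in IgG, was 2.76-fold below (2.27 to 3.38). In the family of novel_7775_x246 the leading sequence had 8 tags against 184. The family of novel_10986_x177 was 2.64-fold below IgG as a sum, but its leading sequence, at 54 tags against 202, was not called. Among the 10 lowest ratios were the 28S sequences novel_20146_x106, with 2 tags against 122, and novel_4237_x439, with 5 against 302. Conversely novel_19300_x109, with 92 tags against 7 and none listed in Sham, was among the 10 highest. The 28S sequence novel_15323_x132 had 207 tags in IgG and 77 in HPC0h and was not listed in tGCI26h.

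In 18S rRNA the fragment at the 5′ end was the furthest above IgG among families of this RNA with at least 200 tags. The sequence novel_9017_x213 had 101 tags in tGCI26h, 40 in IgG, 26 in Sham and 60 in HPC0h, a ratio of 7.59 (5.21 to 11.2), and its family of 2 nested sequences was 9.11 times IgG (6.84 to 12.3). The family of novel_14373_x140 was 2.31 times IgG (2.20 to 2.43), although only 5 of its 32 sequences were called, all higher. It was 2.21 times Sham (2.05 to 2.39). The sequence novel_21786_x100, 32 nt long, had 692 tags in tGCI26h and 934 in IgG, a ratio of 2.23 (2.02 to 2.46). With totals that leave out the 28S 5′ end family, the sums of these 2 families fell short of the threshold, at 1.98 for novel_14373_x140 and 1.91 for novel_21786_x100. At the other end, novel_2167_x831 had 2 tags in tGCI26h against 143 in IgG, 135 in Sham and 143 in HPC0h, and novel_6066_x308 had 2 against 138, 105 and 165, so both were low in tGCI26h alone.

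One 18S family held a subset set apart by its first bases. A shared stretch of 12 bases was preceded by C in 60 measured sequences, by T only in 5 and by nothing in 3. The 5 with T only summed to 8.74 times IgG (7.51 to 10.2), with 4 higher, and to 5.27 times Sham (4.22 to 6.64). The 60 with C summed to 1.37 times IgG (1.32 to 1.43), with 6 higher and 11 lower. The organism from which the sequences with T come was not identified here. The subset was chosen after the values were seen.

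**Figure D4:**
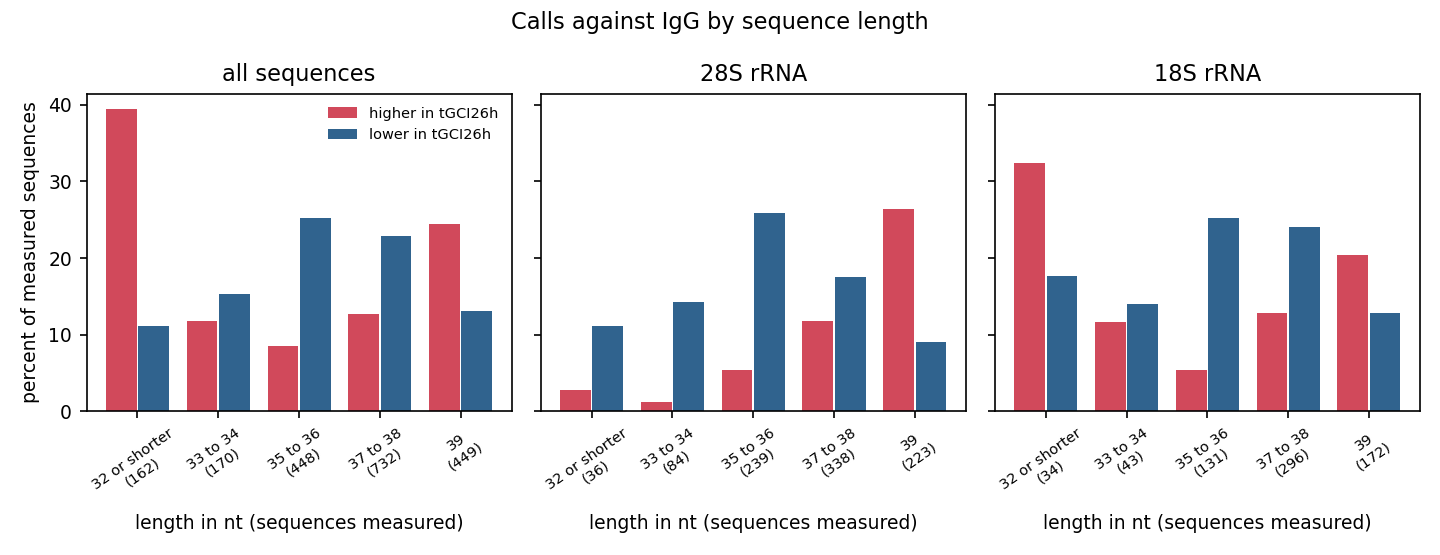
Percent of measured sequences called higher (red) or lower (blue) in tGCI26h against IgG (y axis) by length in nt (x axis, with the number measured), for all sequences and for 28S and 18S rRNA. Higher calls were most frequent among sequences of 32 nt or shorter and of 39 nt over all sequences, and lower calls at 35 to 36 nt. Sequences measured through IgG alone are included and could only be lower or not called, and those through tGCI26h alone could only be higher.

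Calls differed with length. Of 449 sequences of 39 nt, the longest length in the table, 110 were higher (24.5%) and 59 lower (13.1%). At 35 to 36 nt 8.48% of 448 were higher and 25.2% lower. Sequences of 32 nt or shorter were higher in 39.5% and lower in 11.1% of 162. Both rRNAs had the same order between 35 to 36 nt and 39 nt: 28S went from 5.44% to 26.5% higher and 18S from 5.34% to 20.3%. At 32 nt or shorter they differed, with 1 of 36 28S sequences higher (2.78%) and 4 lower, and 11 of 34 18S sequences higher (32.4%) and 6 lower. Since a shorter entry never exceeds the longer one that holds it, these lengths share tags, and no test was made of the trend.

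Spliceosomal snRNAs, which form the core of the splicing machinery, were lower. Their sum was 1057 tags in tGCI26h and 10750 in IgG, 0.296 times IgG (0.277 to 0.315), and 40 of 66 measured sequences were lower, 32 of them measured through IgG alone, with 1 higher, the U4 fragment novel_2461_x736 with 17 tags in tGCI26h and none listed in IgG. U1, which recognises the 5′ splice site, had 1025 CPM in tGCI26h, 9386 in IgG, 7160 in Sham and 463 in HPC0h. It was 9.16-fold below IgG (8.03 to 10.5), with 18 of 21 sequences lower, 14 of them measured through IgG alone. Of the 5 U1 sequences with 10 tags in both libraries 4 were lower. The sequence novel_426_x3250 had 23 tags in tGCI26h, 1399 in IgG, 573 in Sham and 34 in HPC0h. Its level was 20.2-fold below IgG (13.43 to 32.03) in tGCI26h, while in Sham it was at 1.72 times IgG. Further U1 sequences, novel_19694_x107, novel_12071_x163 and novel_15468_x131, were among the 10 lowest ratios, and novel_14652_x138 had 173 tags in IgG and was not listed in tGCI26h. The lead of the larger U1 family, novel_9449_x204, had 82 tags against 2146, 8.71-fold below IgG (6.98 to 11.0).

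U2, which pairs with the branch site, set the ischemia library apart from Sham. It stood at 3532 CPM in tGCI26h, 6336 in IgG, 67927 in Sham and 3021 in HPC0h. The sum was 1.79-fold below IgG (1.66 to 1.94), short of the threshold of 2, and 19.2-fold below Sham (17.9 to 20.7), whereas Sham was 10.7 times IgG. Within its main family 18 of 34 measured sequences were lower and 0 higher, but 15 of the 18 had fewer than 10 tags in tGCI26h and so were measured through IgG alone. Of the 13 with 10 tags in both libraries 3 were lower. The sequence novel_5060_x368 had 10 tags in tGCI26h, 557 in IgG, 5131 in Sham and 265 in HPC0h. By contrast novel_11728_x168 had 217, 333, 209 and 268 tags in that order, a ratio of 1.96 (1.64 to 2.33) that was not called. The lead of the smaller U2 family, novel_4221_x440, was 2.43-fold below IgG (1.44 to 4.40).

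Of the other small RNAs, BC1, a brain RNA of rodents that is found in dendrites, was higher. Its fragments, which share their start with ID elements, were at 795.5 CPM in tGCI26h, 233 in IgG, 264 in Sham and 438 in HPC0h, so tGCI26h was highest. The sum was 3.41 times IgG (2.73 to 4.26), with 4 of 4 sequences higher, and 3.02 times Sham (2.14 to 4.33). Y1 RNA, a small RNA bound by the Ro60 protein, was 1.86 times IgG (1.78 to 1.95) as a sum, with 8 of 22 sequences higher and 2 lower. The rodent 4.5S RNA was 1.71-fold below IgG (1.53 to 1.92), with 8 of 19 sequences lower, 6 of them measured through IgG alone, and 0 higher, and its lead novel_21037_x102 had 42 tags against 375. The 7SL RNA of the signal recognition particle was at 1.19 times IgG (0.931 to 1.52).

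MicroRNAs are bound by Argonaute proteins of the other clade. Of 6 sequences that matched a mature rat miRNA 3 were measured, and 2 of these, let-7b and miR-672-5p, were lower. For let-7b (novel_4906_x381, 21 of the 22 bases of the mature form) there were 551 tags in tGCI26h, 19772 in IgG, 195 in Sham and 414 in HPC0h, so IgG was highest by far. The level was 11.9-fold below IgG (10.97 to 13.02) and 2.02 times Sham (1.71 to 2.39). The sequence rno_piR_015914 is identical to miR-672-5p and had 2 tags in tGCI26h and 103 in IgG, 17.1-fold below (4.62 to 143). A match to miR-222-3p had 2 tags against 16 and was not called. A match to miR-17-5p had 7 tags in tGCI26h and was listed in no other library, and matches to miR-3068-5p and miR-34b-5p had 7 and 4 tags in IgG and were not listed in tGCI26h.

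An unassigned family was nearly confined to IgG. The family of novel_8489_x226 had 11 tags in tGCI26h, 1244 in IgG, none listed in Sham and 8 in HPC0h, with 7 of 7 measured sequences lower, all measured through IgG alone. Its sequence novel_15127_x134 had the lowest ratio of the table among those listed in both, 2 tags against 299 and 49.7-fold below IgG (13.6 to 413), and novel_13956_x144 had 2 against 141. The sequence novel_19185_x109 had 483 tags in IgG and was listed in no other library.

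The known features of piRNAs were looked at over all entries. Sequences of 26 to 31 nt, the usual piRNA range, made up 2.83% of tags in tGCI26h, 1.19% in IgG, 4.57% in Sham and 1.15% in HPC0h. Of 83 measured sequences of that length 41 were higher (against 16.6% of all sequences) and 6 lower. The sum was 2.38 times IgG (2.30 to 2.46). Much of it was tRNA: the 31 nt tRNA-Gly fragment rno_piR_005567 alone held 3201 of its 6301 tags in tGCI26h and 4805 of 7949 in IgG. The family of that fragment was 2.00 times IgG, below the 2.38 of the sum. The unassigned novel_7583_x251 of 28 nt held 778 of the tags in tGCI26h and 54 in IgG. Sequences of 28 nt or shorter were 0.362 times IgG, but 2.96 times (2.79 to 3.15) without let-7b, and 27 of 53 were higher and 6 lower. Of the tags left without let-7b, 2083 in tGCI26h and 2114 in IgG, the tRNA-like novel_7583_x251 of 28 nt held 778 and 54. That higher sum therefore leans on 1 sequence.

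Sequences with T first or with A at position 10, the letters of the piRNA signature, were called higher in 15.0% and 12.8%, against 16.6% of all sequences. Sequences starting with T held 27.2% of tags in tGCI26h and 23.9% in IgG, and 67 of 448 were higher and 107 lower. Without tRNA-Glu, which starts with T, the ratio was 0.952 (0.940 to 0.964). Sequences with A at position 10 were 0.754 times IgG (0.748 to 0.760), with 66 of 515 higher and 104 lower. That sum leans on the 28S 5′ end family. Its lead novel_88_x12235, which has A there, held 28657 of the 78501 tags in tGCI26h and 107258 of 313029 in IgG. Shorter entries with the same start, such as novel_61_x20743, have it too, and a sum without that family was not computed. Sequences with both letters were 0.533 times IgG (0.519 to 0.548), with 17 of 85 higher and 10 lower. Without let-7b, which has both, the ratio was 1.19 (1.15 to 1.23). No 2 listed sequences overlapped by 10 complementary bases at their 5′ ends, and 3 pairs of measured ones did by 9.

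Of the 26 measured rno_piR names 17 were higher (65.4%, against 16.6% of all sequences) and 2 lower. Of the 17, 14 were fragments recognised here as tRNA, in 7 families. All 14 measured rno_piR names that are tRNA fragments were higher. Some of them were measured through tGCI26h alone and so could only be called higher. Examples are rno_piR_000606, with 11 tags against none listed in IgG, and rno_piR_005597, with 10 against 5. Outside tRNA, 3 of 12 were higher and 2 lower, one of them the miR-672-5p match. Of the 3 higher ones rno_piR_000685, a 28S fragment, had 74 tags in tGCI26h and 92 in IgG, a ratio of 2.42. The unassigned rno_piR_023471 had 43 against 38, a ratio of 3.40 (2.15 to 5.41), and the unassigned rno_piR_005772 had 15 against 9.

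The families that were higher over IgG in the ischemia library fell into different orders across the other Piwil2 libraries, which share the same IgG. The 3 unassigned families named next were higher in tGCI26h and HPC0h but below IgG in Sham. The family of novel_12673_x157 was 2.03 times IgG in tGCI26h, 0.307 in Sham and 9.03 in HPC0h. Only 2 of its 9 measured sequences were higher, and the call was lost at 1.90 with TMM factors, 1.98 once let-7b was left out of the totals and 1.74 once the 28S 5′ end family was. The family of novel_9037_x213 was at 3.35, 0.372 and 3.29 times IgG in that order, and novel_5644_x331 at 3.03, 0.128 and 2.22. Set directly against Sham these were 6.61 times (4.86 to 9.21), 9.03 times (5.13 to 17.3) and 23.6 times (9.01 to 87.9) as high in tGCI26h. The family of novel_16571_x123 went the other way, at 2.35 times IgG in tGCI26h, 2.48 in Sham and 0.644 in HPC0h, and was 0.947 times Sham (0.683 to 1.32).

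Sequences near the limit of 10 tags were few and mostly not called. The 139 sequences whose higher count was 10 to 12 had a median ratio of 0.601, and 25 of them were called. The 99 just outside, at 8 to 9 tags, had a median ratio of 0.668.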

How the data were processed

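CA1 RNA was taken with Trizol, ligated to adaptors, amplified by PCR, selected for inserts of about piRNA size and sequenced on an Illumina HiSeq, per the labels' protocols. Cutadapt 1.9.3 and Novoalign 3.02.12 are named in the submitters' processing notes, and no genome build is named there or in the file headers. The deposited raw table gives tag counts per sequence, per the file headers, and the deposited second table gives normalized tag counts, treated as a score because their scaling is not stated. Of the lines, 40 raw and 46 normalized ones were empty and not used. Library totals by column sum were 222511 tags in tGCI26h, 668857 in IgG, 159215 in Sham and 830634 in HPC0h.

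Blank cells were counted as 0. Counts were scaled by column total, and ratios with exact Clopper-Pearson intervals were computed in Python 3.11.15 with scipy 1.17.1. Medians of log2 ratios used 0.5 added to each count. Families joined sequences sharing 20 bases. TMM factors came from edgeR 4.0.16. The calling rule was also run on simulated counts drawn independently for each sequence. Such counts lack shared tags, PCR copies and variation between libraries, so that run cannot show how reliable the calls are here. Sequences named in the text are the 10 highest and 10 lowest called ratios, the 5 most abundant, the 3 most abundant listed on 1 side only, and the lead of each called family with 200 tags; others were chosen after their values were seen. The members and lists were chosen with earlier results of these data known.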

Additional observations from a re-analysis of the deposited data

Results flagged for a closer look

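A further 762 sequences stand in the authors' normalized table alone, without raw counts. Of these, 12 had a normalized value of at least 10 in tGCI26h and at least 2 times that in IgG, a signal in data that no comparison above uses. Their values in tGCI26h ranged from 10 to 33. All 12 were also listed in IgG, and 0 carry a rno_piR name. The scaling of that table is not stated, so no interval can be given.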

How the results depend on the processing

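No paired analysis was possible because each group has 1 library. TMM factors, median-of-ratios factors and totals without let-7b left every count of higher and lower sequences and families within 1.5 times its value. A minimum of 50 tags gave 151 higher and 208 lower sequences and 37 higher families. A minimum of 10 in both libraries gave 91 lower sequences and 9 lower families. A ratio of at least 4 left 153 higher and 248 lower sequences and 34 higher families. Summing contained sequences into a longer one gave 212 higher and 146 lower, and the longest forms alone gave 195 and 163. The authors' normalized table, with no interval, gave 541 higher of 2553 sequences. The cause was not tested beyond the fewer or more sequences that each choice admits. The mitochondrial RNA sum passed the threshold at 2.27 over the longest forms, from 1.95. The unassigned sum, 2.07, missed it at 1.93 with TMM factors, 1.77 without the 28S 5′ end family, 1.97 in the normalized table and 1.93 over the longest forms. Sequences with both T first and A at position 10 passed it at 0.498 with TMM factors, 0.457 without the 28S 5′ end family and 0.447 over the longest forms. The rno_piR sum missed it at 2.00 without the 28S 5′ end family. No called sum or named sequence changed direction under the alternatives run. The U2 sum passed the threshold at 0.477 without the 28S 5′ end family. Among the named sequences, rno_piR_005567, novel_21786_x100 and the 28S sequence novel_19033_x110 (2.11, down to 1.81) lost their call under some totals, and the tRNA-Gly sum lost it under 5 alternatives (1.73 to 1.97). The median log2 ratio of all sequences moved from -0.26 to 0.09 with 5 counts added to each side. Depth limits the tGCI26h side most: 722 sequences had 10 tags in IgG only.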
